A study of Mus musculus with 24 samples.

Results

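The 34 genes described here encode the stress sensors, folding enzymes and degradation machinery of the endoplasmic reticulum (ER) together with the transcription factors of the unfolded protein response (UPR), and were taken by name from the 18919 genes in the count table. Of these, 33 passed a filter on low counts, and Derl3 did not. RNA had been sequenced from primary mouse microglia, the resident macrophages of the brain, at an age labelled p0. Wild-type (WT) cells were C57BL/6, and knockout (KO) cells were of the strain B6.129S4-Cd14tm1Frm/J, whose targeted germline mutation removes CD14, the co-receptor that hands lipopolysaccharide (LPS) to TLR4. For 3 h, cells of each genotype were left untreated or were given Re-LPS (a deep rough form of LPS) at 0.1 ng/ml, Re-LPS at 10 ng/ml or mouse fibronectin (FN, a matrix glycoprotein) at 100 µg/ml, with 3 libraries in each of the 8 groups from what the series calls independent preparations. The series asks how the response to TLR4 stimuli differs without CD14, and the 34 genes are followed here through that design.

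Proteins that enter the secretory pathway fold in the ER with the help of chaperones, and overload is sensed by IRE1 (encoded by Ern1), PERK (encoded by Eif2ak3) and ATF6. IRE1 splices Xbp1 mRNA and ATF6 is cleaved, and the resulting factors XBP1 and ATF6 activate chaperone and ER-associated degradation (ERAD) genes. PERK phosphorylates eIF2alpha, which slows translation while favouring that of Atf4 mRNA. ATF4 activates Ddit3 (CHOP), Trib3, Chac1 and Asns, and Ppp1r15a (GADD34) recruits a phosphatase that reverses the block. In macrophages TLR4 signalling is known to use IRE1 and XBP1 for cytokine production. Counts per gene measure neither Xbp1 splicing nor phosphorylation, cleavage or protein.

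Total counts per library ran from 14939019 to 22143774. Levels are CPM, the read counts scaled to a common sum over library sizes scaled for composition, and a change is a log2 fold change ± its standard error. A gene is called at an adjusted p under 0.05 in edgeR's quasi-likelihood test with Benjamini-Hochberg adjustment over the 13294 genes tested, and "rose" and "fell" are kept for called genes. Cd14 read 2.14 to 6.37 CPM in KO libraries and 338 to 5329 CPM in WT libraries. The 14 microglia markers summed to 10299 to 15187 CPM, with the homeostatic markers Tmem119 at 4.37 to 44.2 CPM and P2ry12 at 2.71 to 24.6 CPM. Libraries of the same replicate number and genotype deviated together, so results that treat the number as a block are given where they change a call against untreated cells or between genotypes, and as counts for the other comparisons. Against untreated cells and for interactions, the replicate block named with a gene is nested in genotype. Between genotypes it is 1 block per replicate number over both genotypes, although the number paired libraries less clearly between genotypes than within them. The ribosomal RNA precursor Rn45s took 3.62, 5.92 and 8.21% of counts in WT LPS 0.1 ng/ml replicate 3, WT LPS 10 ng/ml replicate 3 and KO LPS 0.1 ng/ml replicate 2, and at most 0.785% elsewhere. In bulk samples fewer cells of a type and less RNA per cell cannot be told apart.

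Microglia of the WT genotype had, at 10 ng/ml LPS or with FN, higher Hspa5, Xbp1, Herpud1, Sel1l, Syvn1, Atf4, Chac1, Asns and Ppp1r15a, and lower Eif2ak3 and Ern1, the genes of the sensors PERK and IRE1. Hspa5, the ER chaperone BiP, rose 3.84-fold at 10 ng/ml LPS, and Ppp1r15a rose 25.9-fold. Eif2ak3 was 5.83-fold lower. Most of the other ER chaperones stayed within 0.5 of 0 on the log2 scale, and Ddit3 was not called in any comparison with untreated cells. In KO cells the FN responses of Hspa5, Xbp1, Syvn1, Eif2ak3, Ern1 and Ppp1r15a were smaller than in WT, whereas Herpud1 rose further in KO than in WT cells at 10 ng/ml LPS.

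The promoters of 6 of these genes are shown because they carry the known UPR or ATF4 elements and because the genes that carry one kind did not all move alike. The windows come from RefSeq on GRCm38.p6, which lists all 34 genes as protein coding and gave a promoter window for 29. Each line holds the 250 bases before the annotated start, 5′ to 3′ on the strand of the gene, with letters that match a searched motif in capitals. Hspa5 lies on the + strand of chromosome 2 (window chr2:34771840-34772089), Hsp90b1 on the - strand of chromosome 10 (chr10:86705445-86705694), and Herpud1 on the + strand of chromosome 8 (chr8:94386179-94386428). Syvn1 is on the + strand of chromosome 19 (chr19:6046326-6046575), Asns on the - strand of chromosome 6 (chr6:7693210-7693459) and Chac1 on the + strand of chromosome 2 (chr2:119350992-119351241).
Hspa5: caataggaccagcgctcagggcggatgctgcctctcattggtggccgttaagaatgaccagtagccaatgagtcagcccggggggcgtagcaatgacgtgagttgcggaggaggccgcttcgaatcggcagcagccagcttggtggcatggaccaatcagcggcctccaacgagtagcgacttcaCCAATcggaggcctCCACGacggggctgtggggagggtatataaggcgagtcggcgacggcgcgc
Hsp90b1: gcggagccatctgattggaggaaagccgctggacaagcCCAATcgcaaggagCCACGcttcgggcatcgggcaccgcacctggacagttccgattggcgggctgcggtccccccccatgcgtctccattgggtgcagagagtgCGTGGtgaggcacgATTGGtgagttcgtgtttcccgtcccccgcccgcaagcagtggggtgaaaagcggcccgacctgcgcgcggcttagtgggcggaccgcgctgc
Herpud1: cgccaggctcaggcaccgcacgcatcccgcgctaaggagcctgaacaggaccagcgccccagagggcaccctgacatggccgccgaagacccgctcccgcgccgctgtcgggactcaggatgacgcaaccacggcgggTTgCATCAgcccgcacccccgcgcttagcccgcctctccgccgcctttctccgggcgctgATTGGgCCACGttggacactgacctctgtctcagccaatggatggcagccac
Syvn1: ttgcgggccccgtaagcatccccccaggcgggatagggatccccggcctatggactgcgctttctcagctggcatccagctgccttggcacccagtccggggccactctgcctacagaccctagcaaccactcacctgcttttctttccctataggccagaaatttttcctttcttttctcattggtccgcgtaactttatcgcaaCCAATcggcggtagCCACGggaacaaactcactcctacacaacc
Asns: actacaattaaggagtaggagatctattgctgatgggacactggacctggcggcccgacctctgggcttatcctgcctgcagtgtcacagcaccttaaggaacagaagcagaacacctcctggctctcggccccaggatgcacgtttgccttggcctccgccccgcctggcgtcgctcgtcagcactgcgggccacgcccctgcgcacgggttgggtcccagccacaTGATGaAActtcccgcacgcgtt
Chac1: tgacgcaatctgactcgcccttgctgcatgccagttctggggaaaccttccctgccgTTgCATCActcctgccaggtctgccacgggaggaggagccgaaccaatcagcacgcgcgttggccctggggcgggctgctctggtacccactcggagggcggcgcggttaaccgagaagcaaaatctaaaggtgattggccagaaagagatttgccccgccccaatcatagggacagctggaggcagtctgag

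Motifs were searched on both strands of windows of 300 bases, 250 before to 50 after the start, for the members and for all 32851 RefSeq windows. The ER stress response element (ERSE, CCAAT and CCACG 9 bases apart), which ATF6 and XBP1 bind, was in 39 of all windows (0.119%) and in 9 of the 29 members (31.0%). The 9 were Hspa5, Hsp90b1 with 2 matches, Calr, Canx, Creld2, Dnajc3, Pdia6, Syvn1 and Derl3. ERSE-II (ATTGG and CCACG 1 base apart) was in 12 of all windows (0.0365%), 2 of them those of Herpud1 and Dnajb11. The C/EBP-ATF composite element (TGATGNAA), a site of ATF4, was in 1304 of all windows (3.97%) and in those of Asns, Chac1, Trib3 and Herpud1, so that Herpud1 held both kinds. The UPR element core (TGACGTGG) was in 222 of all windows (0.676%) and in no member's. A match is a description of letters, not a bound site. Among the 9 genes with an ERSE, Hspa5 and Syvn1 rose with 10 ng/ml LPS in WT cells, while Hsp90b1, Calr, Canx, Creld2, Dnajc3 and Pdia6 were not called there and Derl3 was not tested.

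The share of members called with each stimulus in WT cells was near that of all genes. There, 0.1 ng/ml LPS called 5 of 33 members (4 higher, 1 lower) against 15.6% of all genes tested (9.94% higher, 5.66% lower). With 10 ng/ml LPS, 15 were called (11 higher, 4 lower) against 49.4% (23.3% higher, 26.1% lower), and with FN 16 (11 higher, 5 lower) against 50.2% (23.7% higher, 26.5% lower). In KO cells no member was called at 0.1 ng/ml LPS by edgeR against 0.73% (0.722% higher, 0.00752% lower). That count was 1 at an unadjusted p under 0.05, 1 by DESeq2 and 0 by limma. Over all genes the same 3 counts were 577, 190 and 95. KO cells had 17 members called at 10 ng/ml LPS (13 higher, 4 lower) against 42.9% (21.2% higher, 21.6% lower), and with FN 8 (7 higher, 1 lower) against 16.4% (9.23% higher, 7.17% lower). The comparisons within a genotype share 3 untreated libraries.

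Both the scaling and the pairing of libraries moved these counts. With replicate blocks nested in genotype, 16, 24 and 23 members were called in WT cells at 0.1 ng/ml LPS, 10 ng/ml LPS and with FN, and 1, 25 and 19 in KO cells. Of the 13294 genes tested, 5520, 9326 and 9573 were called so in WT cells and 515, 8778 and 5851 in KO cells. With 1 block per replicate number over both genotypes, the members called were 9, 17 and 16 in WT cells and 1, 20 and 13 in KO cells. Over all genes that block called 3152, 7898 and 7992, and 190, 7099 and 3431. It added no member with FN in WT cells, so calls added there came with the nested block alone. Scaling by library totals without composition factors moved the median of all genes by -0.25, -0.80 and -0.78 on the log2 scale in WT cells and by -0.08, -0.50 and -0.16 in KO cells, in the same order of stimuli. On that scale the members called were 3 higher and 3 lower, 6 and 19, and 6 and 19 in WT cells, and 7 and 9 at 10 ng/ml LPS and 5 and 2 with FN in KO cells. For all genes at 10 ng/ml LPS in WT cells the split was 3097 higher and 3473 lower, and 1444 and 7408 on that scale. With FN it was 1490 and 7389 in WT and 879 and 1157 in KO cells on that scale. That scale called 2522 of all genes at 0.1 ng/ml LPS in WT cells and 7132 at 10 ng/ml LPS in KO cells. Changes below are therefore relative to the bulk of the genes, and those that turn or lose their call on the other scale are named.

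**Figure D1:**
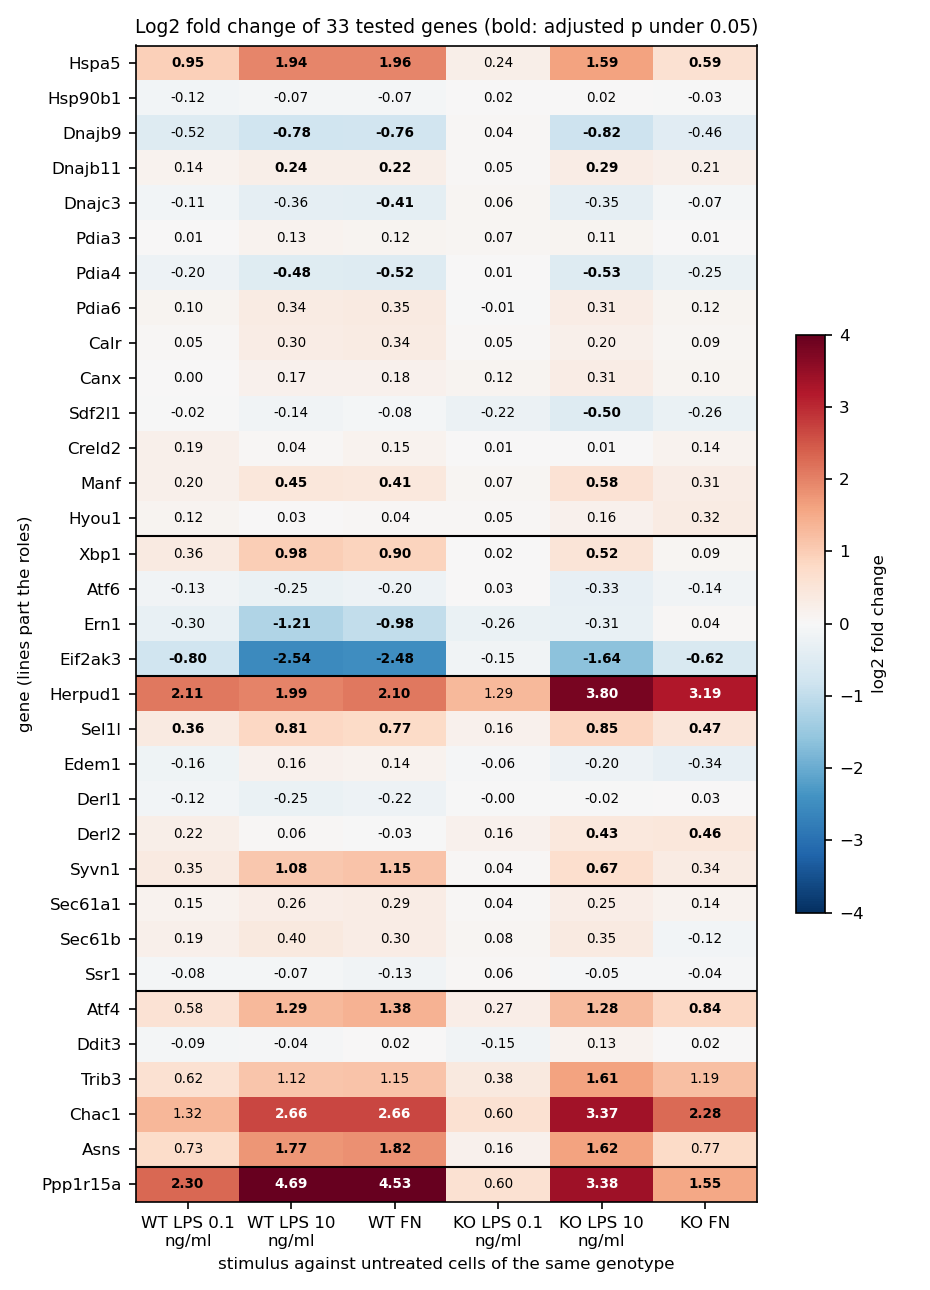
Log2 fold change against untreated cells (colour) of the 33 members tested (rows, by role) in the 6 comparisons of a stimulus with untreated cells (columns; 3 libraries against 3), with values in bold where the adjusted p is under 0.05. Eif2ak3 is the row of strongest decrease and Ppp1r15a, Herpud1 and Chac1 are the rows of strongest increase, while the KO 0.1 ng/ml LPS column has no bold value.

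Among the sensors, Eif2ak3 (PERK) was at 38.9, 38.5 and 38.5 CPM in the 3 untreated WT libraries, 20.98, 20.3 and 25.3 at 0.1 ng/ml LPS, 7.02, 7.41 and 5.42 at 10 ng/ml LPS and 6.83, 7.58 and 6.33 with FN. The KO libraries held 40.9, 35.4 and 33.3 CPM untreated, 37.3, 31.3 and 30.5 at 0.1 ng/ml LPS, 11.8, 11.9 and 11.5 at 10 ng/ml LPS and 26.2, 23.6 and 21.6 with FN. Every stimulated WT library lay below every untreated one, as did the KO libraries at 10 ng/ml LPS and with FN, while KO libraries at 0.1 ng/ml LPS overlapped the untreated ones. The gene fell in WT cells at 0.1 ng/ml LPS (-0.80 ± 0.13, adjusted p = 1.51e-04), at 10 ng/ml LPS (-2.54 ± 0.13, adjusted p = 1.04e-10) and with FN (-2.48 ± 0.13, adjusted p = 1.13e-10). In KO cells it fell at 10 ng/ml LPS (-1.64 ± 0.13, adjusted p = 1.26e-08) and with FN (-0.62 ± 0.12, adjusted p = 0.0017).

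Ern1, which encodes the IRE1 kinase and endonuclease, was at 31.2, 36.6 and 33.2 CPM in untreated WT cells, 26.1, 26.3 and 29.3 at 0.1 ng/ml LPS, 13.4, 13.8 and 16.5 at 10 ng/ml LPS and 15.1, 18.2 and 18.04 with FN. KO cells had 33.3, 31.9 and 31.3 CPM untreated, 26.4, 24.4 and 30.1 at 0.1 ng/ml LPS, 21.2, 27.3 and 29.4 at 10 ng/ml LPS and 29.6, 35.8 and 34.2 with FN. WT libraries with every stimulus and KO libraries at either LPS dose were all under the untreated ones of their genotype, and KO libraries with FN overlapped theirs. Ern1 fell in WT cells at 10 ng/ml LPS (-1.21 ± 0.13, adjusted p = 2.79e-07) and with FN (-0.98 ± 0.13, adjusted p = 3.33e-06). In KO cells it was not called at 10 ng/ml LPS (-0.31 ± 0.13, adjusted p = 0.0564; 0.00797 with the replicate block) or with FN (0.04 ± 0.13, adjusted p = 0.956). Its WT value at 0.1 ng/ml LPS of -0.30 ± 0.13 was not called (adjusted p = 0.125; 0.0179 with the replicate block).

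Atf6, the third sensor, was at 147, 147 and 151 CPM in untreated WT cells, 141, 141 and 124 at 0.1 ng/ml LPS, 129.8, 118 and 126 at 10 ng/ml LPS and 126, 127 and 134 with FN. KO levels were 144, 125 and 179 CPM untreated, 135, 129 and 192 at 0.1 ng/ml LPS, 107, 113 and 137 at 10 ng/ml LPS and 129, 119 and 157 with FN. All stimulated WT libraries lay under the untreated ones, while KO libraries overlapped theirs with every stimulus. Atf6 was not called for any stimulus, with values from -0.33 to 0.03. Blocked by replicate, it was lower at 10 ng/ml LPS in WT (-0.25, adjusted p = 0.00407) and KO cells (-0.32, 6.54e-04) and with FN in WT cells (-0.20, 0.0159).

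Xbp1, the transcription factor that IRE1 activates by splicing, moved opposite to Ern1. It was at 74.6, 78.9 and 84.7 CPM in untreated WT cells, 107, 109.8 and 90.4 at 0.1 ng/ml LPS, 169, 163 and 138 at 10 ng/ml LPS and 151, 151 and 144 with FN. KO cells had 79.5, 81.4 and 68.5 CPM untreated, 85.1, 78.4 and 68.9 at 0.1 ng/ml LPS, 127, 114 and 89.04 at 10 ng/ml LPS and 88.6, 90.3 and 64.7 with FN. All stimulated WT libraries were above the untreated ones, whereas in KO cells this held at 10 ng/ml LPS and the FN libraries overlapped the untreated ones. Xbp1 rose in WT cells at 10 ng/ml LPS (0.98 ± 0.14, adjusted p = 1.1e-05) and with FN (0.90 ± 0.14, adjusted p = 2.59e-05) and in KO cells at 10 ng/ml LPS (0.52 ± 0.14, adjusted p = 0.0053). In WT cells at 0.1 ng/ml LPS it was not called (0.36 ± 0.14, adjusted p = 0.0919; 0.00173 with the replicate block). On library totals without composition factors none of the 3 rises was called (0.18, 0.11 and 0.02), whereas the falls of Eif2ak3 and Ern1 were kept.

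**Figure D2:**
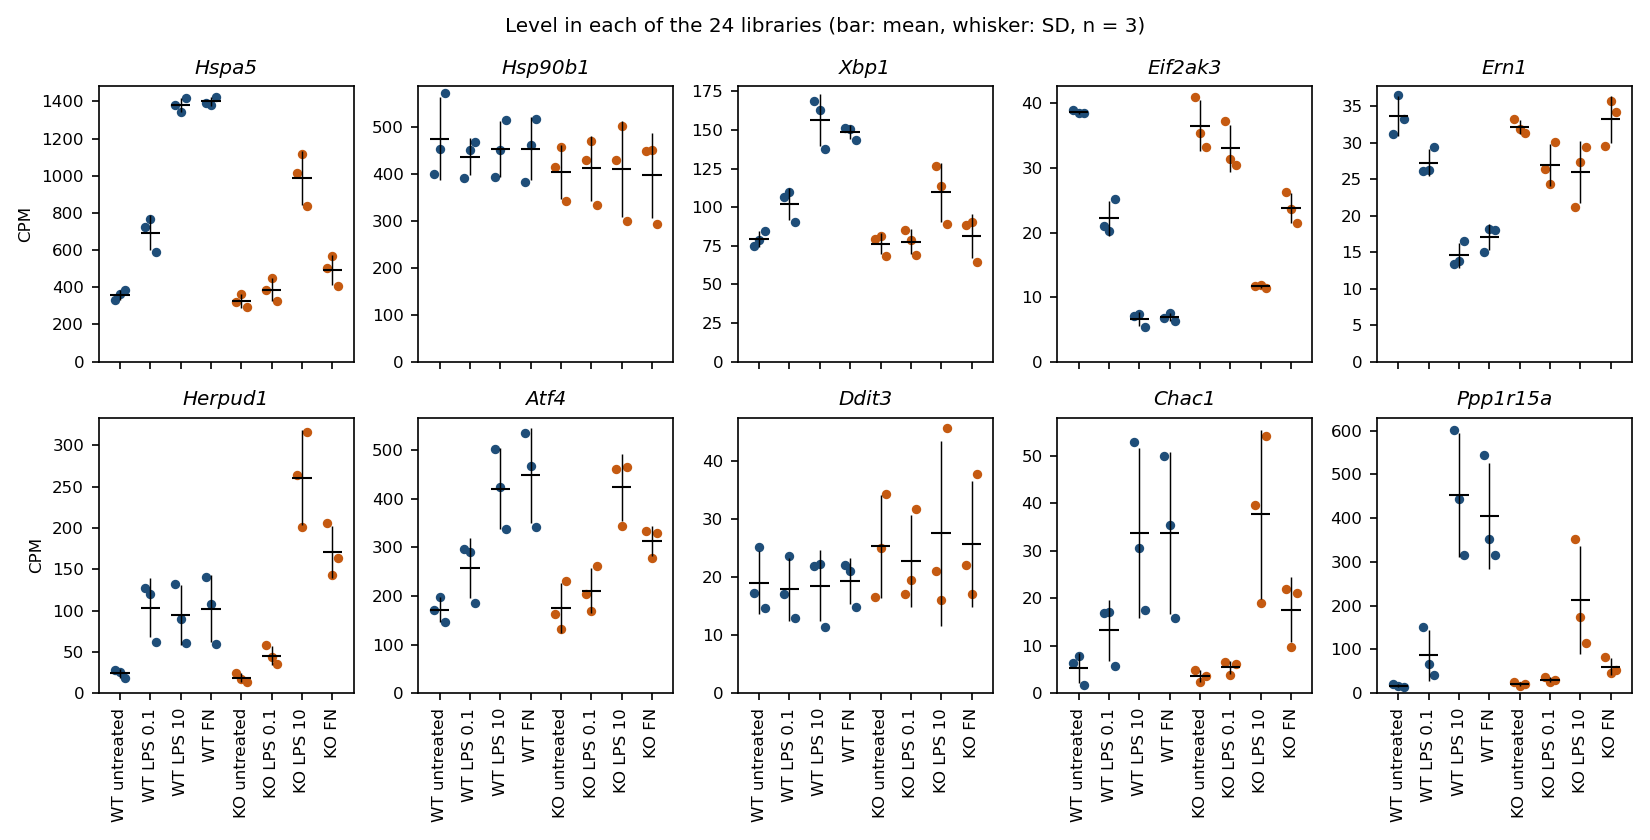
Level in CPM (y axis, linear, from 0) of 10 genes in each of the 24 libraries (points, replicates 1 to 3 from left to right in each group; blue WT, orange KO), with the mean as a bar and the SD as a whisker (n = 3). Hspa5 is at 1342 to 1426 CPM in WT cells at 10 ng/ml LPS or with FN, Hsp90b1 and Ddit3 show no separation of groups, and Herpud1 is highest in KO cells at 10 ng/ml LPS.

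Of the 14 chaperones and folding enzymes that ATF6 and XBP1 are known to activate, Hspa5 stood out. BiP, its product, holds unfolded chains and keeps the sensors inactive. Hspa5 was at 331, 364 and 383 CPM in untreated WT cells, 726, 766 and 590.03 at 0.1 ng/ml LPS, 1379, 1342 and 1417 at 10 ng/ml LPS and 1394, 1382 and 1426 with FN. Without CD14 the levels were 322, 366 and 294 CPM untreated, 383, 451 and 327 at 0.1 ng/ml LPS, 1012, 1119 and 835 at 10 ng/ml LPS and 504, 569.6 and 408 with FN. The 3 stimulated WT groups did not overlap the untreated one, and neither did KO cells at 10 ng/ml LPS or with FN, while KO cells at 0.1 ng/ml LPS overlapped it. Hspa5 rose in WT cells at 0.1 ng/ml LPS (0.95 ± 0.15, adjusted p = 1.55e-04), at 10 ng/ml LPS (1.94 ± 0.15, adjusted p = 6.57e-09) and with FN (1.96 ± 0.15, adjusted p = 5.71e-09), and in KO cells at 10 ng/ml LPS (1.59 ± 0.15, adjusted p = 1.24e-07). The KO rise with FN (0.59 ± 0.15, adjusted p = 0.00878) was lost without KO FN replicate 2 (adjusted p = 0.0535) and on library totals without composition factors (0.45, 0.0943).

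Other chaperones called moved less than Hspa5. Manf, a secreted ER stress factor, was at 38.1, 36.5 and 37.05 CPM in untreated WT cells, 41.3, 45.1 and 41.9 at 0.1 ng/ml LPS, 53.8, 44.4 and 54.4 at 10 ng/ml LPS and 49.9, 44.98 and 53.99 with FN. Its KO values were 31.9, 35.6 and 33.6 CPM untreated, 38.7, 36.6 and 30.8 at 0.1 ng/ml LPS, 48.8, 55.99 and 46.2 at 10 ng/ml LPS and 44.6, 44.7 and 35.96 with FN. All WT libraries at 10 ng/ml LPS or with FN were above the untreated ones. Manf rose at 10 ng/ml LPS in WT (0.45 ± 0.11, adjusted p = 0.00245) and KO cells (0.58 ± 0.11, adjusted p = 3.65e-04) and with FN in WT cells (0.41 ± 0.11, adjusted p = 0.00448), and both WT values turned negative on library totals without composition factors (-0.35 and -0.37), where the KO value was 0.09 and not called. Dnajb11, a BiP co-chaperone, rose in the same 3 comparisons by 0.24 ± 0.07, 0.22 ± 0.07 and 0.29 ± 0.07 (adjusted p = 0.00947, 0.0167 and 0.00367), and all 3 turned negative on that scale (-0.56, -0.56 and -0.20). With the replicate block Manf (0.30, adjusted p = 0.00694) and Dnajb11 (0.22, 0.0135) were also called higher in KO cells with FN. The FN call of Dnajb11 was lost without WT FN replicate 3 (adjusted p = 0.122).

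Dnajb9, whose product ERdj4 is a BiP co-chaperone and a classical XBP1 target, went the other way from Hspa5. It was at 36.2, 26.9 and 29.5 CPM in untreated WT cells, 23.9, 20.9 and 19.9 at 0.1 ng/ml LPS, 20.5, 19.98 and 13.4 at 10 ng/ml LPS and 18.8, 21.7 and 14.1 with FN. In KO libraries it stood at 32.6, 25.1 and 31.6 CPM untreated, 29.6, 26.9 and 35.4 at 0.1 ng/ml LPS, 18.3, 15.7 and 16.7 at 10 ng/ml LPS and 25.1, 20.4 and 19.6 with FN. WT libraries at every stimulus were under the untreated ones, and so were KO libraries at 10 ng/ml LPS. Dnajb9 fell at 10 ng/ml LPS in WT (-0.78 ± 0.18, adjusted p = 0.00144) and KO cells (-0.82 ± 0.18, adjusted p = 0.00126) and with FN in WT cells (-0.76 ± 0.18, adjusted p = 0.00171), and with the replicate block also in WT cells at 0.1 ng/ml LPS (adjusted p = 0.00261) and in KO cells with FN (0.00622). Pdia4, a protein disulphide isomerase, was at 69.5, 71.4 and 78.9 CPM in untreated WT cells, 56.95, 62.5 and 71.3 at 0.1 ng/ml LPS, 51.04, 55.3 and 51.05 at 10 ng/ml LPS and 44.5, 54.02 and 55.1 with FN. Its KO values were 74.8, 69.4 and 65 CPM untreated, 67.8, 70.9 and 71.4 at 0.1 ng/ml LPS, 49.1, 54.1 and 42.1 at 10 ng/ml LPS and 62.5, 62.2 and 51.1 with FN. It fell at 10 ng/ml LPS in WT (-0.48 ± 0.11, adjusted p = 0.00156) and KO cells (-0.53 ± 0.11, adjusted p = 9.63e-04) and with FN in WT cells (-0.52 ± 0.11, adjusted p = 8.44e-04), and with the replicate block it was also lower in WT cells at 0.1 ng/ml LPS (-0.21, adjusted p = 0.0443) and in KO cells with FN (-0.25, 0.0144). WT libraries at 10 ng/ml LPS or with FN and KO libraries at 10 ng/ml LPS all lay under their untreated groups.

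A fall of Dnajc3, the BiP co-chaperone that also inhibits PERK, was called with FN in WT cells alone (-0.41 ± 0.15, adjusted p = 0.0288), and it was lost without WT untreated replicate 1 (adjusted p = 0.0819), WT untreated replicate 2 (0.0768) or WT FN replicate 3 (0.16), by DESeq2 (0.0506) and with RLE scaling (0.0631). Under the replicate block Dnajc3 was also lower at 10 ng/ml LPS in WT (-0.37, adjusted p = 2.61e-04) and KO cells (-0.34, 6.55e-04). Sdf2l1, a partner of the co-chaperones, fell in KO cells at 10 ng/ml LPS (-0.50 ± 0.15, adjusted p = 0.00918), and this was lost without KO LPS 10 ng/ml replicate 3 (adjusted p = 0.0598). With the block it was also lower in KO cells with FN (-0.26, 0.00506).

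The remaining chaperones, Hsp90b1, Pdia3, Pdia6, Calr, Canx, Creld2 and Hyou1, were not called for any stimulus in either genotype. Calr, the lectin chaperone calreticulin, was at 478, 493 and 612 CPM in untreated WT cells, 505, 539 and 591 at 0.1 ng/ml LPS, 599, 632 and 721 at 10 ng/ml LPS and 574, 635 and 791 with FN. KO cells had 479.9, 545 and 329.6 CPM untreated, 521, 545 and 335 at 0.1 ng/ml LPS, 564, 648 and 339 at 10 ng/ml LPS and 514, 607 and 321 with FN. KO replicate 3 was the lowest library for Calr in all 4 KO groups. Pdia3, its disulphide isomerase partner, was at 378, 452 and 552 CPM in untreated WT cells, 398, 482 and 508 at 0.1 ng/ml LPS, 418, 499.6 and 598 at 10 ng/ml LPS and 397, 493 and 610.4 with FN. In KO libraries it stood at 374, 486 and 402 CPM untreated, 393, 515 and 420.3 at 0.1 ng/ml LPS, 416, 562 and 383 at 10 ng/ml LPS and 401, 489 and 379 with FN. For both genes the stimulated libraries overlapped the untreated ones in each genotype, with differences from 0.01 to 0.34. Hsp90b1 (GRP94), named after its values were seen because its promoter holds 2 ERSE matches, was at 400.4, 452 and 573 CPM in untreated WT cells and 394, 451 and 514 at 10 ng/ml LPS. Those groups overlapped, and the difference of -0.07 ± 0.21 had a 95% interval of -0.51 to 0.37.

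With the replicate block, Calr (0.31), Pdia6 (0.35) and Canx (0.17) were called higher at 10 ng/ml LPS in WT cells (adjusted p = 3.5e-04, 3.31e-05 and 0.0383). The same genes were called higher with FN in WT cells (0.33, 0.35 and 0.18) and at 10 ng/ml LPS in KO cells (0.17, 0.30 and 0.32). Hyou1, a BiP exchange factor, was called with the block in KO cells with FN (0.32, adjusted p = 0.00152). Hsp90b1, Pdia3 and Creld2 were not called against untreated cells with the block either. By their group means in CPM, Pdia6 ran from 109 to 149.6, Canx from 381 to 477, Creld2 from 18.8 to 21.7 and Hyou1 from 66.9 to 83.6 over the 8 groups.

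Of the 7 ERAD members, which extract misfolded proteins for degradation, Herpud1, Sel1l and Syvn1 rose in WT cells at 10 ng/ml LPS. Herpud1, which assembles the HRD1 ligase complex, was at 28, 25.2 and 18.4 CPM in untreated WT cells, 128, 119.7 and 62.4 at 0.1 ng/ml LPS, 133, 90.2 and 61.1 at 10 ng/ml LPS and 140.1, 108 and 59.2 with FN. The KO libraries held 24.6, 17.3 and 14.1 CPM untreated, 58.2, 43.5 and 35.1 at 0.1 ng/ml LPS, 264, 201 and 316 at 10 ng/ml LPS and 206, 143 and 164 with FN. Every stimulated group lay above the untreated group of its genotype. Herpud1 rose in WT cells at 0.1 ng/ml LPS (2.11 ± 0.36, adjusted p = 3.18e-04), at 10 ng/ml LPS (1.99 ± 0.35, adjusted p = 1.15e-04) and with FN (2.1 ± 0.36, adjusted p = 6.5e-05). It rose in KO cells at 10 ng/ml LPS, 13.9-fold (3.80 ± 0.38, adjusted p = 2.59e-07), and with FN, 9.15-fold (3.19 ± 0.37, adjusted p = 6.89e-06). The KO value at 0.1 ng/ml LPS was not called (1.29 ± 0.35, adjusted p = 0.134; 3.27e-04 with the replicate block).

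Syvn1, the HRD1 ubiquitin ligase, was at 50.9, 53.4 and 53.2 CPM in untreated WT cells, 68.4, 62.4 and 69.4 at 0.1 ng/ml LPS, 104, 109 and 119.8 at 10 ng/ml LPS and 108, 106 and 137 with FN. KO cells had 52.7, 58.7 and 51.02 CPM untreated, 56.5, 59.4 and 50.7 at 0.1 ng/ml LPS, 90.6, 93.1 and 74.2 at 10 ng/ml LPS and 60.6, 79.6 and 65.6 with FN. It rose in WT cells at 10 ng/ml LPS (1.08 ± 0.12, adjusted p = 5.47e-07) and with FN (1.15 ± 0.12, adjusted p = 2.25e-07) and in KO cells at 10 ng/ml LPS (0.67 ± 0.12, adjusted p = 1.75e-04), with no overlap with the untreated libraries. On library totals without composition factors these 3 values were 0.28, 0.37 and 0.17 and were not called. With the replicate block Syvn1 was also called in WT cells at 0.1 ng/ml LPS (0.34, adjusted p = 0.00192) and in KO cells with FN (0.34, 0.00187).

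Sel1l, the adaptor of the same ligase, was at 226, 217 and 217 CPM in untreated WT cells, 301, 299.6 and 247 at 0.1 ng/ml LPS, 394, 361 and 405 at 10 ng/ml LPS and 381, 356 and 391 with FN. Its KO values were 209.9, 194 and 217 CPM untreated, 228, 215 and 254 at 0.1 ng/ml LPS, 356, 357 and 405 at 10 ng/ml LPS and 292, 277 and 293 with FN. Only the KO libraries at 0.1 ng/ml LPS overlapped the untreated ones. It rose at 10 ng/ml LPS in WT (0.81 ± 0.09, adjusted p = 7.09e-07) and KO cells (0.85 ± 0.09, adjusted p = 7.87e-07) and with FN in WT (0.77 ± 0.09, adjusted p = 1.32e-06) and KO cells (0.47 ± 0.09, adjusted p = 0.00144), but on library totals without composition factors the WT values were 0.01 and -0.015 and not called. Its rise at 0.1 ng/ml LPS in WT cells (0.36 ± 0.09, adjusted p = 0.011) was lost without WT LPS 0.1 ng/ml replicate 1 (adjusted p = 0.0737) or replicate 2 (0.0625), and on that scale (0.11).

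Derl2, a membrane component of the retrotranslocation channel, was at 49.5, 52.7 and 51.7 CPM in untreated WT cells, 63.1, 60.7 and 55.7 at 0.1 ng/ml LPS, 55.4, 48.04 and 56.7 at 10 ng/ml LPS and 53.4, 48.04 and 49.7 with FN. KO cells had 47.6, 51.3 and 63.4 CPM untreated, 56.03, 56.3 and 69.1 at 0.1 ng/ml LPS, 63.8, 70.1 and 84.3 at 10 ng/ml LPS and 69.96, 70.7 and 82.6 with FN. It rose in KO cells at 10 ng/ml LPS (0.43 ± 0.12, adjusted p = 0.0086) and with FN (0.46 ± 0.12, adjusted p = 0.0137), where all 3 libraries were above the untreated ones, and was not called in WT cells. The 10 ng/ml call was lost without KO untreated replicate 1 (adjusted p = 0.055) or KO LPS 10 ng/ml replicate 3 (0.0688), and its value was -0.05 on library totals without composition factors. The FN call was lost without KO untreated replicate 1 (0.0816), KO untreated replicate 2 (0.0649) or KO FN replicate 3 (0.0832), and on that scale (0.32). Under the replicate block Derl2 was also called higher in WT cells at 0.1 ng/ml LPS (0.22, adjusted p = 0.0141).

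Edem1 and Derl1 were the uncalled ERAD members of highest level. Edem1, which directs misfolded glycoproteins to degradation, was at 430.2, 431 and 384 CPM in untreated WT cells, 399, 373 and 345 at 0.1 ng/ml LPS, 492, 448 and 448 at 10 ng/ml LPS and 487, 439.9 and 447 with FN. KO cells had 437, 365 and 629 CPM untreated, 401, 379 and 592 at 0.1 ng/ml LPS, 438, 362 and 446 at 10 ng/ml LPS and 389, 296 and 448 with FN. Its WT libraries at 10 ng/ml LPS or with FN all lay above the untreated ones, but the differences of 0.16 ± 0.19 and 0.14 ± 0.19 were not called (adjusted p = 0.563 and 0.604). The SD was 25.4 to 27.1 CPM in the WT groups and 46.3 to 137 CPM in the KO groups. For Edem1, KO replicate 3 was the highest KO library at every treatment. Derl1, of the same family as Derl2, was at 131, 104 and 81.7 CPM in untreated WT cells, 125, 95.8 and 71.1 at 0.1 ng/ml LPS, 118, 82.2 and 65.9 at 10 ng/ml LPS and 120.1, 84.6 and 68.3 with FN. In KO libraries it stood at 129.9, 73.7 and 94.4 CPM untreated, 129, 76.6 and 91.8 at 0.1 ng/ml LPS, 126, 71.2 and 97.4 at 10 ng/ml LPS and 129, 75.8 and 98.7 with FN. For Derl1 the order of the replicates was the same in all 4 groups of a genotype, and with the replicate block it was lower in WT cells at 10 ng/ml LPS (-0.27, adjusted p = 3.16e-04) and with FN (-0.23, 0.00126). Edem1 was lower with the block in KO cells with FN (-0.32, 0.00538). Derl3 had 59 reads over all 24 libraries, none in 4 of them and at most 12 in 1, which is at most 0.440 CPM, and was not tested.

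The translocon members, which carry nascent chains into the ER, were not called for any stimulus. Sec61a1, the channel subunit, was at 150, 149 and 106 CPM in untreated WT cells, 169.8, 156 and 123 at 0.1 ng/ml LPS, 184, 166 and 137 at 10 ng/ml LPS and 185, 171 and 139.6 with FN. Its KO values were 147, 111 and 153 CPM untreated, 148, 116 and 157 at 0.1 ng/ml LPS, 175, 131 and 185 at 10 ng/ml LPS and 158, 129.98 and 166 with FN. Among the WT libraries of Sec61a1, replicate 3 was the lowest at every treatment. Ssr1, of the translocon-associated complex, was at 145, 152 and 119 CPM in untreated WT cells, 137, 149.8 and 105 at 0.1 ng/ml LPS, 146, 144 and 107 at 10 ng/ml LPS and 142, 137 and 101 with FN. KO cells had 136, 95.7 and 173 CPM untreated, 142, 108 and 172 at 0.1 ng/ml LPS, 131, 99.8 and 160.4 at 10 ng/ml LPS and 146, 100.3 and 147 with FN. Stimulated and untreated libraries of both genes overlapped. With the replicate block Sec61a1 was called higher for all stimuli but KO 0.1 ng/ml LPS, by 0.15, 0.27 and 0.30 in WT cells and by 0.25 and 0.15 in KO cells (largest adjusted p = 0.0393). Sec61b, a small subunit of the same channel with group means of 12.4 to 17.8 CPM, was called with the block at 10 ng/ml LPS in WT (0.37, 0.0181) and KO cells (0.32, 0.0373).

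In the ATF4 arm, Atf4, Chac1 and Asns rose together in WT cells at 10 ng/ml LPS and with FN. Atf4 was at 172, 199 and 146 CPM in untreated WT cells, 296, 290.4 and 186 at 0.1 ng/ml LPS, 503, 424 and 337 at 10 ng/ml LPS and 535, 468 and 343 with FN. Without CD14 the levels were 162, 131 and 231 CPM untreated, 204, 168 and 261 at 0.1 ng/ml LPS, 462, 344 and 465 at 10 ng/ml LPS and 333, 278 and 329.7 with FN. Libraries at 10 ng/ml LPS or with FN lay above all untreated ones of their genotype. Atf4 rose in WT cells at 10 ng/ml LPS (1.29 ± 0.24, adjusted p = 1.85e-04) and with FN (1.38 ± 0.24, adjusted p = 9.21e-05) and in KO cells at 10 ng/ml LPS (1.28 ± 0.24, adjusted p = 2.79e-04). Its KO rise with FN (0.84 ± 0.24, adjusted p = 0.0198) was lost without KO untreated replicate 1 (adjusted p = 0.0761), KO untreated replicate 2 (0.112), KO FN replicate 1 (0.0658) or KO FN replicate 3 (0.0638). At 0.1 ng/ml LPS in WT cells it was not called (0.58 ± 0.24, adjusted p = 0.12), but it was with the replicate block (3.17e-04) and with the 3 Rn45s-rich libraries left out (0.77, 0.0287).

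Chac1, a glutathione-degrading enzyme, was at 6.39, 7.86 and 1.68 CPM in untreated WT cells, 16.9, 17.1 and 5.79 at 0.1 ng/ml LPS, 52.9, 30.7 and 17.4 at 10 ng/ml LPS and 49.9, 35.4 and 15.8 with FN. KO cells had 4.87, 2.38 and 3.66 CPM untreated, 6.54, 3.94 and 6.06 at 0.1 ng/ml LPS, 39.7, 19.02 and 54.3 at 10 ng/ml LPS and 21.9, 9.80 and 21.2 with FN. Every library at 10 ng/ml LPS or with FN was above the untreated ones of its genotype. It rose at 10 ng/ml LPS in WT (2.66 ± 0.61, adjusted p = 0.00124) and KO cells (3.37 ± 0.63, adjusted p = 2.59e-04) and with FN in WT cells (2.66 ± 0.61, adjusted p = 0.00121), and the KO rise with FN (2.28 ± 0.61, adjusted p = 0.0135) was lost without KO untreated replicate 2 (adjusted p = 0.0718). The WT value at 0.1 ng/ml LPS of 1.32 ± 0.59 was not called (adjusted p = 0.16; 1.06e-04 with the replicate block).

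Asns, asparagine synthetase, was at 32.7, 51.4 and 30.7 CPM in untreated WT cells, 66.3, 77.4 and 46.6 at 0.1 ng/ml LPS, 146, 123 and 122 at 10 ng/ml LPS and 151, 132 and 121 with FN. In KO cells it was at 31.6, 30.4 and 56.7 CPM untreated, 36.2, 34.8 and 61.7 at 0.1 ng/ml LPS, 108, 103 and 153 at 10 ng/ml LPS and 60.3, 52.8 and 89.7 with FN. All libraries at 10 ng/ml LPS were above the untreated ones, and so were the WT libraries with FN, while the KO FN libraries overlapped them. Asns rose at 10 ng/ml LPS in WT (1.77 ± 0.30, adjusted p = 6.42e-05) and KO cells (1.62 ± 0.30, adjusted p = 2.07e-04) and with FN in WT cells (1.82 ± 0.30, adjusted p = 4.71e-05). It was not called in KO cells with FN (0.77 ± 0.29, adjusted p = 0.081; 1.36e-04 with the replicate block) or in WT cells at 0.1 ng/ml LPS (0.73 ± 0.29, adjusted p = 0.109; 3.8e-04 with the block).

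Trib3, a pseudokinase that restrains ATF4, differed widely between the replicates of each group. It was at 14.5, 19.4 and 6.61 CPM in untreated WT cells, 21.9, 30.6 and 9.77 at 0.1 ng/ml LPS, 40.7, 33.4 and 14.05 at 10 ng/ml LPS and 38.8, 37.3 and 13.7 with FN. In KO libraries it stood at 10.2, 4.58 and 15.6 CPM untreated, 13.7, 5.76 and 20 at 0.1 ng/ml LPS, 34.1, 15.8 and 42.8 at 10 ng/ml LPS and 24.5, 13.6 and 31.3 with FN. WT replicate 3 was the lowest and KO replicate 2 the lowest of every group of its genotype. Without the block only the KO value at 10 ng/ml LPS was called (1.61 ± 0.61, adjusted p = 0.0411), and that call was lost without KO untreated replicate 1 (adjusted p = 0.0931), KO untreated replicate 2 (0.16), KO LPS 10 ng/ml replicate 1 (0.088) or replicate 3 (0.142), and on library totals without composition factors (1.13, 0.106). Its WT value at 10 ng/ml LPS was 1.12 ± 0.61 (adjusted p = 0.139; 3.1e-07 with the replicate block; 0.0481 with the 3 Rn45s-rich libraries left out). With the block Trib3 was also called in WT cells with FN (1.14, 2.05e-07) and at 0.1 ng/ml LPS (0.61, 9.57e-04) and in KO cells with FN (1.26, 3.63e-07).

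Ddit3, which encodes the pro-apoptotic factor CHOP, did not follow Atf4. It was at 17.2, 25.1 and 14.7 CPM in untreated WT cells, 17.1, 23.6 and 12.9 at 0.1 ng/ml LPS, 21.9, 22.1 and 11.4 at 10 ng/ml LPS and 22.1, 20.99 and 14.8 with FN. The KO libraries held 16.5, 24.9 and 34.3 CPM untreated, 17.01, 19.5 and 31.7 at 0.1 ng/ml LPS, 20.9, 15.99 and 45.7 at 10 ng/ml LPS and 21.98, 17.1 and 37.8 with FN. KO replicate 3 was the highest library in every KO group, and all stimulated groups overlapped the untreated ones. The differences ran from -0.15 to 0.13, none was called, with or without the replicate block, and the 95% interval at 10 ng/ml LPS in WT cells was -0.91 to 0.83.

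Ppp1r15a, the GADD34 phosphatase subunit, had the largest change of the members in WT cells. It was at 22.03, 15.8 and 14.7 CPM in untreated WT cells, 151, 67.3 and 40.7 at 0.1 ng/ml LPS, 600.4, 444 and 317 at 10 ng/ml LPS and 543, 353 and 317 with FN. KO levels were 24.6, 15.8 and 21.4 CPM untreated, 36.97, 25.5 and 31.3 at 0.1 ng/ml LPS, 352, 174 and 115 at 10 ng/ml LPS and 82.5, 46.3 and 52.1 with FN. Every stimulated library was above all untreated ones of its genotype. Ppp1r15a rose in WT cells at 0.1 ng/ml LPS (2.30 ± 0.45, adjusted p = 0.00131), at 10 ng/ml LPS (4.69 ± 0.50, adjusted p = 2.81e-07) and with FN (4.53 ± 0.50, adjusted p = 3.89e-07) and in KO cells at 10 ng/ml LPS (3.38 ± 0.47, adjusted p = 1.19e-05). The KO value at 0.1 ng/ml LPS was 0.60 ± 0.43 and not called. The KO rise with FN (1.55 ± 0.44, adjusted p = 0.0198) was lost without KO untreated replicate 2 (adjusted p = 0.094), KO untreated replicate 3 (0.0513) or KO FN replicate 1 (0.0988).

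The ATF6 and XBP1 chaperones and the ATF4 arm were compared as lists by their counts and medians. In WT cells at 10 ng/ml LPS, 3 of 14 chaperones rose and 2 fell, beside 23.3% of all genes higher and 26.1% lower. Their median log2 fold change was 0.09 beside -0.01 over all genes tested. There 12 of the 14 were within 0.5 of 0, as were 5632 of the 13294 genes. In the ATF4 arm 3 of 5 rose with a median of 1.29. By replicate number, the chaperone median was 0.10, 0.15 and 0.01 and the ATF4-arm median 1.55, 1.09 and 1.20, so the order of the lists was the same in all 3. With FN in WT cells the chaperone median was 0.14 (3 rose, 3 fell) and the ATF4-arm median 1.38 (3 rose) beside 0.01 over all genes. There 23.7% of all genes were higher and 26.5% lower.

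In KO cells the same contrast between the lists appeared at 10 ng/ml LPS. The chaperone median was 0.14 (3 rose, 3 fell), the ATF4-arm median 1.61 (4 rose) and that of all genes -0.01. There 21.2% of all genes were higher and 21.6% lower. With FN in KO cells the medians were 0.10 (1 rose) and 0.84 (2 rose), beside 9.23% of all genes higher and 7.17% lower. At 0.1 ng/ml LPS they were 0.03 (1 rose) and 0.62 (none called) in WT cells and 0.05 and 0.27 (none called in either list) in KO cells. At that dose 9.94% of all genes were higher and 5.66% lower in WT cells, and 0.722% and 0.00752% in KO cells. Without composition factors the chaperone medians at 10 ng/ml LPS became -0.71 in WT and -0.35 in KO cells and the ATF4-arm medians 0.49 and 1.13. The medians of all genes on that scale were -0.80 in WT and -0.50 in KO cells. The chaperone medians thus fell below 0 with the bulk of the genes and stayed above the medians of all genes. Those of the ATF4 arm stayed above 0. Hspa5 had the highest value of the 14 chaperones in all 6 comparisons.

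**Figure D3:**
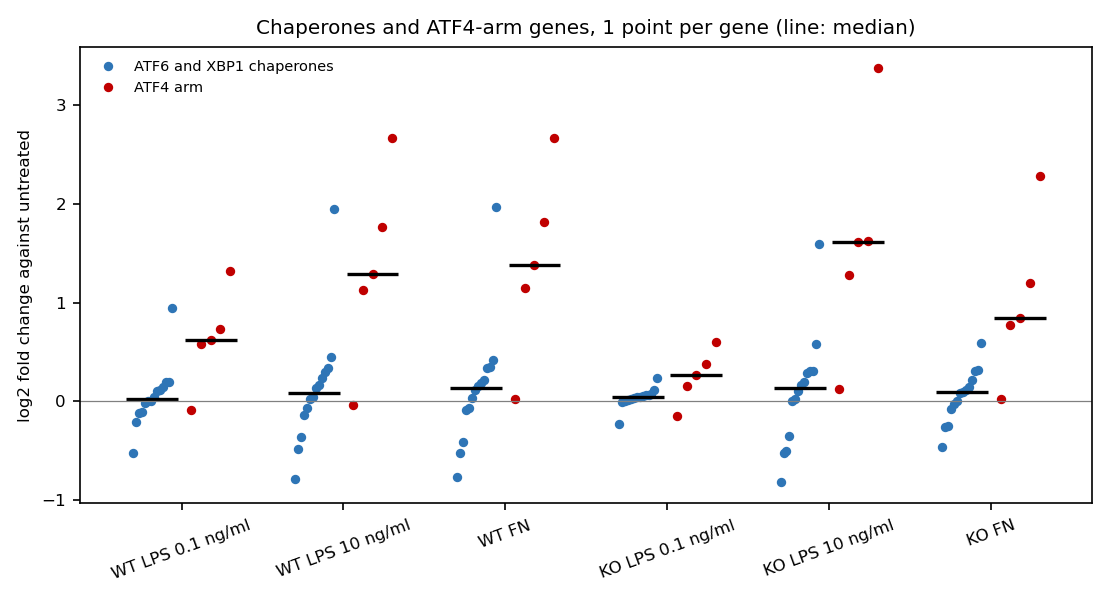
Log2 fold change against untreated cells (y axis) of the 14 ATF6 and XBP1 chaperones (blue) and the 5 ATF4-arm genes (red) for each stimulus and genotype (x axis), 1 point per gene in rising order, with a line at the median. The chaperone medians lie between 0.03 and 0.14 in all 6 comparisons, with Hspa5 as the top blue point, and the ATF4-arm medians between 0.27 and 1.61, with Ddit3 as the lowest red point.

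Markers of other cells moved with the stimuli or differed between the genotypes. The 10 vascular and fibroblast markers summed to 4.52 to 10.7 CPM in untreated WT cells, 12.7 to 18.2 at 0.1 ng/ml LPS, 24.2 to 55.4 at 10 ng/ml LPS and 20.7 to 48.7 with FN, and to 5.99 to 10.6, 4.58 to 9.74, 20.9 to 37.1 and 3.30 to 6.83 CPM in KO cells. Of the 4 that passed the filter (Pecam1, Cdh5, Kdr and Pdgfrb), 3 rose at 10 ng/ml LPS in WT cells, whereas Cldn5 and Lum were at 0 in 23 of 24 libraries. Neuron markers summed to at most 105 CPM and were highest in KO replicate 2 at every treatment, and no neuron marker was called. The 12 oligodendrocyte-lineage markers, none of which was at 0 in more than 1 library, summed to 225 to 490 CPM in WT and 157 to 258 CPM in KO libraries. Their median difference of KO from WT was -1.63 in untreated cells (none called) and -1.88 with FN (1 higher, 1 lower), where KO libraries held 179.7 to 258 and WT libraries 256 to 478 CPM. The 9 astrocyte markers summed to 11.5 to 45.1 CPM, with Gfap at 1.05 CPM or less, and the median difference of the 8 tested was -0.77 in untreated cells and -1.17 with FN (1 lower). Of the 14 microglia markers, 4 were higher and 3 lower in KO cells with FN, and of the 4 vascular and fibroblast markers 3 were lower. The part of these cells in the members' values, between genotypes or with the stimuli, was not tested.

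Between genotypes, no member differed in untreated cells by edgeR (0 also at an unadjusted p under 0.05, by DESeq2 and by limma), where 0.00752% of all genes were called. Of the 13294 genes tested, 130 had an unadjusted p under 0.05, DESeq2 called 2 and limma 1. With 1 block per replicate number, 0 members and 19 of all genes were called. Few genes passed in any of these fits, so 0 members does not show that none differed. With 0.1 ng/ml LPS 4 members differed (1 higher, 3 lower in KO cells) against 9.3% of all genes (2.97% higher, 6.33% lower), at 10 ng/ml LPS 7 (4 higher, 3 lower) against 15.9% (8.05% higher, 7.85% lower), and with FN 9 (3 higher, 6 lower) against 38.6% (21% higher, 17.6% lower). The interaction, which is the WT change subtracted from the KO change, was called for no member at 0.1 ng/ml LPS by edgeR (4 at an unadjusted p under 0.05, 2 by DESeq2, 0 by limma) against 2.29% (0.188% higher, 2.11% lower). Over all genes, 1359 had an unadjusted p under 0.05 there, DESeq2 called 594 and limma 315. The interaction was called for 3 members at 10 ng/ml LPS against 5.28% (1.96% higher, 3.32% lower) and for 6 with FN against 23.1% (11.8% higher, 11.3% lower). With replicate blocks nested in genotype the interactions called were 5, 10 and 17, and with 1 block per replicate number the genotype differences called were 7, 8 and 11. Over all genes these were 1779, 2887 and 6553 interactions and 2507, 3337 and 6654 genotype differences. On library totals without composition factors the FN interactions split into 13 higher and 2 lower and the FN genotype differences into 19 higher and 2 lower, with the median of all genes at 0.65 and 0.68. All genes split into 4999 higher and 808 lower, and into 6838 and 1117. On that scale 5 members were higher and none lower in KO cells at 10 ng/ml LPS, and 2 were higher and 3 lower at 0.1 ng/ml, with the median of all genes at 0.35 and 0.20. There all genes split into 3448 higher and 649 lower, and into 679 and 624. With the compared groups fitted alone, 0, 1 and 9 members differed at 0.1 ng/ml LPS, 10 ng/ml LPS and with FN, beside 240, 804 and 4022 of all genes.

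Eif2ak3 and Ern1 kept more of their untreated level in KO cells. At 10 ng/ml LPS, KO cells had 11.7 ± 0.211 CPM of Eif2ak3 (mean ± SD, n = 3) and WT cells 6.61 ± 1.06, with an interaction of 0.90 ± 0.18, adjusted p = 0.00544. With FN the levels were 23.8 ± 2.34 and 6.91 ± 0.631 CPM and the interaction 1.86 ± 0.18, adjusted p = 1.07e-06. KO and WT libraries did not overlap at any of the 3 stimuli, and the genotype difference was 0.57 ± 0.12, adjusted p = 0.0055 at 0.1 ng/ml LPS, 0.82 ± 0.13 at 10 ng/ml LPS (adjusted p = 2.09e-04) and 1.78 ± 0.13 with FN (1.22e-08). For Ern1 the interaction was 0.90 ± 0.18, adjusted p = 0.00578 at 10 ng/ml LPS and 1.02 ± 0.18, adjusted p = 3.4e-04 with FN, and KO exceeded WT cells by 0.83 ± 0.13 (adjusted p = 1.83e-04) and 0.96 ± 0.13 (8.28e-06). With the compared groups fitted alone, the genotype difference of Eif2ak3 was not called at 0.1 (adjusted p = 0.117) or 10 ng/ml LPS (0.052). That of Ern1 at 10 ng/ml LPS was not called either (0.0513). The FN response of Ern1, a fall of WT cells, was near 0 in KO cells (0.04 ± 0.13, 95% interval -0.22 to 0.31).

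Hspa5, Xbp1 and Syvn1, higher with FN in WT cells, responded less to FN in KO cells. The interaction was -1.37 ± 0.21, adjusted p = 9.58e-05 for Hspa5, -0.82 ± 0.20, adjusted p = 0.00514 for Xbp1 and -0.81 ± 0.17, adjusted p = 0.0016 for Syvn1. KO cells were lower with FN by -1.50 ± 0.15 for Hspa5 (adjusted p = 3.23e-07), -0.87 ± 0.14 for Xbp1 (6.64e-05) and -0.77 ± 0.12 for Syvn1 (4.84e-05), and the libraries of the genotypes did not overlap. Those of Xbp1 and Syvn1 were lost on library totals without composition factors, both as interactions (-0.17 and -0.16) and as genotype differences (-0.21 and -0.10), while those of Hspa5 were kept (-0.72 and -0.84).

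These 3 genes were also lower in KO cells at 10 ng/ml LPS, with thin support. The differences were -0.48 ± 0.15, adjusted p = 0.0325 for Hspa5, -0.51 ± 0.14, adjusted p = 0.0166 for Xbp1 and -0.36 ± 0.12, adjusted p = 0.0452 for Syvn1. That of Hspa5 was lost without any 1 of the WT LPS 10 ng/ml libraries or KO LPS 10 ng/ml replicate 1 or 3 (adjusted p up to 0.179). The call of Xbp1 was lost without WT LPS 10 ng/ml replicate 1 (0.0716), replicate 2 (0.0589) or KO LPS 10 ng/ml replicate 3 (0.114). For Syvn1 it was lost in 14 of 24 omissions: any 1 library of WT untreated or WT LPS 10 ng/ml, replicate 1 or 2 of WT LPS 0.1 ng/ml or KO LPS 0.1 ng/ml, KO untreated replicate 1, KO FN replicate 3, or KO LPS 10 ng/ml replicate 1 or 3 (up to 0.237). With the 3 Rn45s-rich libraries left out, Hspa5 (0.054) and Syvn1 (0.176) were not called, and on library totals without composition factors none of the 3 was (-0.15, -0.20 and -0.04). With the nested replicate block their interactions at this dose were called (-0.35, -0.46 and -0.41; adjusted p = 0.0348, 0.00755 and 0.0135). Hspa5 was lower in KO cells at 0.1 ng/ml LPS too (-0.84 ± 0.15, adjusted p = 9.77e-04), a call lost with the compared groups fitted alone (0.0936).

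Herpud1 showed the opposite order of genotypes at the higher dose. At 10 ng/ml LPS it was higher in KO than in WT cells (1.46 ± 0.35, adjusted p = 0.00658), with KO libraries at 201 CPM or more and WT libraries at 133 or less. The interaction was 1.81 ± 0.49, adjusted p = 0.0346, and it was lost when WT untreated replicate 1 or 2, WT LPS 10 ng/ml replicate 2 or 3, KO untreated replicate 2 or 3, or KO LPS 10 ng/ml replicate 3 was left out (adjusted p = 0.0727 to 0.0997), with values of 1.58 to 1.78. With the 3 Rn45s-rich libraries left out it was 1.58 (adjusted p = 0.0684). With FN the libraries of the genotypes did not overlap and the difference was 0.74 ± 0.34 (adjusted p = 0.0998; 0.00831 with the replicate block), while the interaction was 1.09 ± 0.48 (0.122; 0.00107 with the nested block). At 0.1 ng/ml LPS it was lower in KO cells (-1.18 ± 0.35, adjusted p = 0.0378), a call lost without WT LPS 0.1 ng/ml replicate 1 (0.182), replicate 2 (0.14), KO LPS 0.1 ng/ml replicate 2 (0.112) or replicate 3 (0.164).

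Ppp1r15a with FN was 6.71-fold lower in KO than in WT cells (-2.75 ± 0.46, adjusted p = 9e-05), with an interaction of -2.98 ± 0.62, adjusted p = 0.00161 and no overlap between the libraries. The difference at 10 ng/ml LPS was -1.09 ± 0.43 and not called (adjusted p = 0.103; -1.17 and 0.0017 with the replicate block). At 0.1 ng/ml LPS it was -1.46 ± 0.44 (adjusted p = 0.0421), and without WT LPS 0.1 ng/ml replicate 1 the value was -0.79 (adjusted p = 0.382). That call was also lost without WT LPS 0.1 ng/ml replicate 2, any 1 of the KO LPS 0.1 ng/ml libraries, WT untreated replicate 2 or 3, KO untreated replicate 3, replicate 2 of WT LPS 10 ng/ml or WT FN, or KO FN replicate 3 (adjusted p = 0.0503 or more). Derl2 was higher in KO cells with FN (0.56 ± 0.12, adjusted p = 0.0012) and at 10 ng/ml LPS (0.45 ± 0.12, adjusted p = 0.018), a difference that was lost at 10 ng/ml without WT LPS 10 ng/ml replicate 2 (adjusted p = 0.0934) or KO LPS 10 ng/ml replicate 3 (0.133). Sel1l was lower in KO cells with FN (-0.39 ± 0.09, adjusted p = 0.00247), and its value was 0.27 on library totals without composition factors.

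In the ATF4 arm the genotypes differed in 1 call. Asns was lower in KO cells with FN (-0.99 ± 0.29, adjusted p = 0.0107), which was lost without KO FN replicate 2 (adjusted p = 0.0585) and on library totals without composition factors (-0.34). Its FN interaction was -1.04 ± 0.41 (adjusted p = 0.0777; 2.14e-04 with the nested block). The interaction of Atf4 at 10 ng/ml LPS was -0.01 ± 0.34 with a 95% interval of -0.73 to 0.70, that of Chac1 0.71 ± 0.82 and that of Asns -0.15 ± 0.41, and none was called. With the nested block the FN interaction of Atf4 was called (-0.49, 0.0104).

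The nested block called further interactions. At 0.1 ng/ml LPS they were those of Hspa5 (-0.71, adjusted p = 5.57e-04), Ppp1r15a (-1.54, 0.0122), Herpud1 (-0.78, 0.0488), Eif2ak3 (0.65, 0.00287) and Dnajb9 (0.56, 0.0387). At 10 ng/ml LPS the block added Ppp1r15a (-1.38, 0.0124), Sdf2l1 (-0.38, 0.0106), Derl1 (0.25, 0.0283) and Derl2 (0.37, 0.00871) to those given above. With FN it added negative interactions of Pdia6 (-0.24), Calr (-0.26), Sel1l (-0.30) and Edem1 (-0.46) and positive ones of Dnajc3 (0.35), Hyou1 (0.29), Derl1 (0.26) and Derl2 (0.50), with adjusted p up to 0.0293. Between genotypes, 1 block per replicate number also called Xbp1 (-0.40, 0.01) and Sel1l (-0.29, 0.0329) lower and Dnajb9 (0.51, 0.032) higher in KO cells at 0.1 ng/ml LPS, and Sec61b lower with FN (-0.37, 0.0494).

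**Figure D4:**
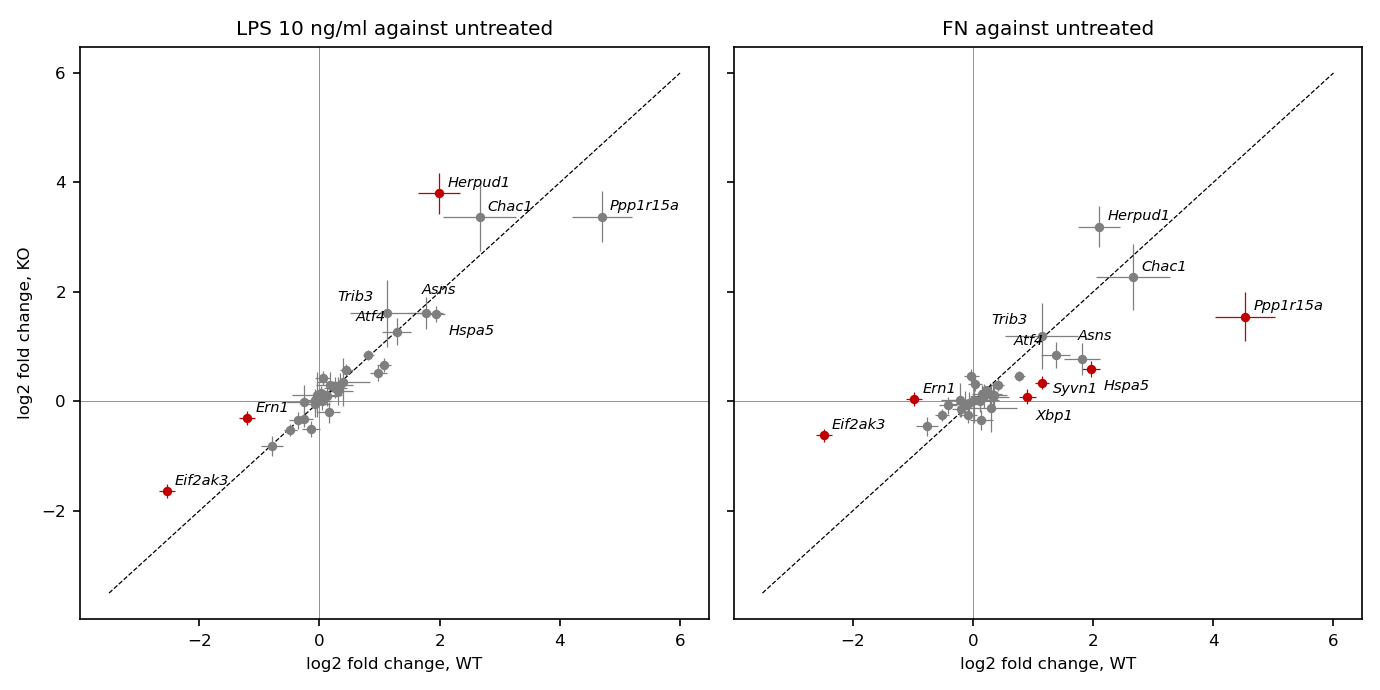
Log2 fold change against untreated cells in WT (x axis) and KO cells (y axis) of the 33 members tested, at 10 ng/ml LPS (left) and with FN (right), with bars of 1 standard error, red points where the interaction is called and a dashed line of equal change. At 10 ng/ml LPS Eif2ak3, Ern1 and Herpud1 lie above the line, and with FN Hspa5, Xbp1, Syvn1 and Ppp1r15a lie below it and Eif2ak3 and Ern1 above it.

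From 0.1 to 10 ng/ml LPS in WT cells, the nested block called 20 members and 7576 of all genes. Without the block 9 members differed (7 higher, 2 lower at 10 ng/ml) against 32.2% of all genes (14.8% higher, 17.4% lower). Hspa5 (0.99 ± 0.15, adjusted p = 5.71e-05), Xbp1 (0.61 ± 0.14, adjusted p = 0.00231), Syvn1 (0.73 ± 0.12, adjusted p = 1.32e-04), Sel1l (0.45 ± 0.09, adjusted p = 9.43e-04) and Ppp1r15a (2.40 ± 0.45, adjusted p = 4.32e-04) were higher, and Eif2ak3 (-1.74 ± 0.13, adjusted p = 7.78e-08) and Ern1 (-0.90 ± 0.13, adjusted p = 3.23e-05) lower. Atf4 was higher too (0.71 ± 0.24, adjusted p = 0.0284), a call lost without WT LPS 0.1 ng/ml replicate 3 (adjusted p = 0.166), WT LPS 10 ng/ml replicate 1 (0.135) or replicate 2 (0.0617). That of Asns (1.04 ± 0.29, adjusted p = 0.0104) was lost without WT LPS 0.1 ng/ml replicate 3 (0.0692). With the 3 Rn45s-rich libraries left out neither Atf4 (0.0929) nor Asns (0.0952) was called. Of the other members that rose at 10 ng/ml LPS in WT cells, Herpud1 (-0.13 ± 0.34, 95% interval -0.85 to 0.60), Chac1 (1.35 ± 0.58; adjusted p = 1.4e-05 with the nested block), Manf (0.25 ± 0.11) and Dnajb11 (0.10 ± 0.07) were not called different between the doses.

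On library totals without composition factors 2 members were higher and 14 lower at the higher dose in WT cells, with the median of all genes at -0.57 and 6957 of all genes called. Xbp1 (0.06), Syvn1 (0.17), Atf4 (0.16) and Asns (0.49) lost their calls there, and Sel1l turned to -0.10.

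In KO cells 7 members were higher and 8 lower at the higher dose on library totals without composition factors. There 6217 of all genes were called and the median of all genes was -0.42. With composition factors 15 members differed between the doses (11 higher, 4 lower) against 36.7% of all genes (18.3% higher, 18.5% lower). Herpud1 was higher at 10 ng/ml by 2.51 ± 0.36, adjusted p = 2.34e-05, and Hspa5 by 1.35 ± 0.15, adjusted p = 1.38e-06. The ATF4-arm genes Atf4 (1.005 ± 0.24), Chac1 (2.77 ± 0.61) and Asns (1.46 ± 0.30), and Ppp1r15a (2.77 ± 0.46), were higher as well (adjusted p = 0.00267, 0.00151, 6.95e-04 and 1.04e-04). Xbp1 (0.50 ± 0.14), Syvn1 (0.63 ± 0.12), Sel1l (0.68 ± 0.09), Manf (0.51 ± 0.11) and Dnajb11 (0.24 ± 0.07) completed the higher genes. On library totals without composition factors Dnajb11 turned to -0.17, and Xbp1 (0.09), Syvn1 (0.22) and Manf (0.10) were not called. Eif2ak3 (-1.50 ± 0.13), Dnajb9 (-0.86 ± 0.18), Pdia4 (-0.53 ± 0.11) and Dnajc3 (-0.41 ± 0.15) were lower. Ern1 was not (-0.05 ± 0.13, adjusted p = 0.841). With the 3 Rn45s-rich libraries left out, Dnajb11 was not called (0.0765). The call of Dnajb11 was also lost without replicate 2 of either dose (adjusted p = 0.0667 and 0.079) and that of Xbp1 without KO LPS 10 ng/ml replicate 1 (0.0564). That of Dnajc3 was lost without any 1 library of these groups other than KO LPS 0.1 ng/ml replicate 2 (0.0599 to 0.126).

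FN and 10 ng/ml LPS gave member levels that were not called different in WT cells, where edgeR called 0 of 33 members (0 also at an unadjusted p under 0.05, by DESeq2 and by limma) and 0% of all genes. Of the 13294 genes tested, 105 had an unadjusted p under 0.05, so 0 members at that threshold does not show that none differed. With the nested block, 0 members and 0 of all genes were called. The differences ran from -0.17 to 0.23, and that of Hspa5 had a 95% interval of -0.29 to 0.33. In KO cells the nested block called 21 members and 5952 of all genes. Without the block 5 members differed against 17% of all genes (7.55% higher, 9.43% lower). Eif2ak3 was higher with FN than with 10 ng/ml LPS (1.02 ± 0.13, adjusted p = 2.97e-05), and Hspa5 (-1.001 ± 0.15, adjusted p = 1.52e-04) and Sel1l (-0.38 ± 0.09, adjusted p = 0.00866) were lower. Ppp1r15a was lower (-1.82 ± 0.44, adjusted p = 0.00751), which was lost without KO LPS 10 ng/ml replicate 1 (adjusted p = 0.0669). Xbp1 was lower by -0.43 ± 0.14 (adjusted p = 0.0389), with libraries that overlapped, and this call was lost without KO LPS 10 ng/ml replicate 1 (adjusted p = 0.204) or 2 (0.0987) or KO FN replicate 3 (0.191). On library totals without composition factors 9 members were higher and 2 lower with FN, where 3990 of all genes were called and the median of all genes was 0.35. Xbp1 (-0.08) and Sel1l (-0.03) were not called on that scale.

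Other genes of the pathway were read from lists written from general knowledge, and their counts stand beside the share of all genes called. That was 23.3% higher and 26.1% lower at 10 ng/ml LPS and 23.7% and 26.5% with FN in WT cells, and 21.2% and 21.6% at 10 ng/ml LPS and 9.23% and 7.17% with FN in KO cells. Among other ATF4 target and integrated stress response genes, 22 of 41 rose (53.7%) and 2 fell (4.88%) at 10 ng/ml LPS in WT cells, with a median of 0.77. With FN 26 rose and 2 fell in WT cells, and in KO cells 27 rose and 2 fell at 10 ng/ml LPS and 10 rose and 1 fell with FN. KO cells at 0.1 ng/ml LPS had 1 that rose. On library totals without composition factors the WT count at 10 ng/ml was 10 higher and 8 lower with a median of -0.03. The median of all genes was -0.80 on that scale and -0.01 with composition factors. The sign of the list's median therefore depended on the scale, while it lay above the median of all genes on both. Nupr1, a stress-induced chromatin factor (5.38 ± 0.34 in WT and 4.90 ± 0.33 in KO cells), Slc7a11, the cystine transporter (5.43 ± 1.08 and 6.00 ± 1.11), and Mthfd2, of mitochondrial folate metabolism (2.18 ± 0.28 and 1.77 ± 0.27), rose in both genotypes. Atf3 rose by 2.19 ± 0.24, adjusted p = 4.47e-07 in WT and 0.60 ± 0.23, adjusted p = 0.0455 in KO cells, and the KO rise was lost on library totals without composition factors (0.09, adjusted p = 0.788). The transfer RNA synthetase gene Nars (0.33 ± 0.14) and the amino acid transporter gene Slc38a2 (0.36 ± 0.26) were not called in WT cells.

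Among the kinases, phosphatase subunits and other regulators, 11 of 21 rose (52.4%) and 5 fell (23.8%) at 10 ng/ml LPS in WT cells, with a median of 0.94 (8 and 10, median 0.13, on library totals without composition factors), and 12 rose and 2 fell in KO cells. The interferon-induced eIF2alpha kinase PKR, Eif2ak2, rose by 3.47 ± 0.28 in WT and 2.15 ± 0.27 in KO cells, in the direction opposite to Eif2ak3. Ppp1r15b, the constitutively expressed paralogue of Ppp1r15a, rose by 2.73 ± 0.31 and 1.68 ± 0.30. The ATF6 protease gene Mbtps1 and the paralogue Atf6b were not called in WT cells.

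Other ERAD genes had 8 of 25 higher (32%) and 3 lower (12%) in WT cells at 10 ng/ml LPS, with a median of 0.19 (1 and 18 on library totals without composition factors). Rnf139, an ER ubiquitin ligase, rose by 1.96 ± 0.17 in WT and 1.09 ± 0.17 in KO cells. Herpud2, the paralogue of Herpud1, rose by 0.89 ± 0.17, adjusted p = 2e-04 in WT cells and was at -0.23 ± 0.17 and not called in KO cells, where Herpud1 had its highest level. The WT rise of Herpud2 was lost on that scale (0.08, adjusted p = 0.661) and the KO value was lower and called (-0.72, 3.59e-04). Vcp, the segregase that pulls substrates out, and the lectin gene Os9 were not called in WT cells.

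Other ER chaperones, oxidases and glycan-processing genes had 4 of 33 higher (12.1%) and 6 lower (18.2%) at 10 ng/ml LPS in WT cells with a median of 0.00 (1 and 28 on library totals without composition factors), and 5 and 5 in KO cells. Ero1l, the oxidase that recharges disulphide isomerases, rose by 1.20 ± 0.31 in WT and 1.77 ± 0.31 in KO cells, while P4hb, its main client, was at 0.12 ± 0.09 and not called in WT cells. The WT rise of Ero1l was lost on library totals without composition factors (0.40, adjusted p = 0.167), and its KO rise was kept there (1.28). Other translocation and N-glycan transfer genes had 8 of 29 higher (27.6%) and none lower in WT cells with a median of 0.22, and 0 higher and 22 lower on library totals without composition factors. The translocation list, like the 14 chaperones, changed side with the scale, and the median of all genes was -0.80 on library totals. The other ER chaperones had more genes lower than higher on both scales. Cytosolic and mitochondrial heat shock genes had 4 of 20 higher (20%) and none lower in WT cells (1 and 7 on library totals without composition factors) and 3 higher and 1 lower in KO cells. Hspa4l, a cytosolic exchange factor, rose by 1.02 ± 0.12 in WT and fell by 0.49 in KO cells on the log2 scale, with an interaction of -1.51 ± 0.17, adjusted p = 8.79e-05. The WT rise of Hspa4l was lost on library totals without composition factors (0.22, adjusted p = 0.282) and the KO value was -0.98, so its rise in WT cells depended on the scale. The general chaperone genes Hsp90ab1 and Hspa8 were not called in WT cells.

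With FN, the genotypes differed in 14 of the 41 other ATF4 target genes (1 higher, 13 lower in KO cells), in 12 of the 21 regulators (3 higher, 9 lower) and in 9 each of the other ER chaperones (6 higher, 3 lower) and other ERAD genes (6 higher, 3 lower), beside 21% of all genes higher and 17.6% lower. These splits depended on the scale. Without composition factors, on library totals, the counts higher and lower in KO cells were 10 and 7 for the ATF4 target genes, 10 and 5 for the regulators, 25 and 1 for the other ER chaperones and 19 and 2 for the other ERAD genes, beside 6838 and 1117 of all genes.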

How the data were processed

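The values are RNA-seq read counts per gene from TruSeq libraries of 24 microglia cultures. Per the submitters' processing notes, the mm10 genome was used and the tools named include Bowtie2 2.1.0 and SAMtools 0.1.19; HTSeq 0.5.4, CASAVA 1.8.2, FastQC 0.10.0 and DESeq are also listed. The annotation and the use of strand are not given in the sources used here, so overlapping or antisense genes cannot be told apart. The deposited table of counts held 18919 genes. The deposited normalized signal, for 12889 genes, equalled counts over 1 factor per library to within 0.144, and 33 of the 34 members are in it.

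The test was that of edgeR 4.0.16 (R 4.3.3): filterByExpr (minimum count 10, minimum total 15; 13294 genes kept), TMM factors, and a robust quasi-likelihood fit of 8 groups in 24 libraries with 16 residual degrees of freedom. The 17 contrasts were adjusted by Benjamini and Hochberg over all genes tested, and genes were called under 0.05. P-values measure the spread between these libraries. Fold changes used a prior count of 0.125. The members and all gene lists were chosen with earlier results of these data known. Per-library values are given for members called between genotypes or in an interaction, up to 4 called members a role, 2 uncalled ones of highest level, the sensors, the ATF4 arm and Ppp1r15a; other genes were named as up to 4 called with the largest change and 2 uncalled of highest level a list.

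The replicate number was checked over 9582 genes. Within a genotype, deviations from group means correlated at 0.653 to 0.968 between libraries of 1 number and at -0.791 to 0.410 otherwise. Between genotypes the same number gave 0.177 to 0.884 (median 0.436) and other numbers -0.80 to 0.76 (median -0.528). These ranges overlapped, so the number separated libraries cleanly within a genotype but not between genotypes. The pairing comes from the data, not from the labels. Alternatives were the replicate block (over all libraries, or nested in genotype as 6 blocks), DESeq2 1.42.0, limma 3.58.1 on log2 of the signal plus 1, RLE scaling, library totals without composition factors, no filter, 5 CPM in at least 3 libraries, the compared groups alone, no Rn45s-rich libraries and each library left out. The fit without a block was also run on simulated counts drawn independently for each library. Those held no pairing of libraries and far fewer changed genes than the data. They cannot show how the test behaves under either condition. Motifs and coordinates are from RefSeq on GRCm38.p6.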

Additional observations from a re-analysis of the deposited data

Results flagged for a closer look

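The change with a stimulus differed between the genotypes for 9 combinations of gene and stimulus, by the interaction test of edgeR over all genes. At 10 ng/ml LPS the KO change minus the WT change was 0.90 on the log2 scale for Ern1 (adjusted p = 0.00578), 0.90 for Eif2ak3 (0.00544) and 1.81 for Herpud1 (0.0346). With FN it was -1.37 for Hspa5 (9.58e-05), -0.82 for Xbp1 (0.00514), 1.02 for Ern1 (3.4e-04), 1.86 for Eif2ak3 (1.07e-06), -0.81 for Syvn1 (0.0016) and -2.98 for Ppp1r15a (0.00161). For Ern1, Eif2ak3, Hspa5, Xbp1, Syvn1 and Ppp1r15a the difference is a smaller change in KO cells, and for Herpud1 a larger one. The values of Herpud1, Xbp1 and Syvn1 rest on the libraries or the scaling named in the report.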

How the results depend on the processing

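Over 119 calls of single genes, 3853 alternative values kept the call, 163 lost it and 10 turned sign. All 10 came from library totals without composition factors. They were Dnajb11 in WT LPS 10 ng/ml (-0.56), WT FN (-0.56), KO LPS 10 ng/ml (-0.20) and the KO doses (-0.17), and Manf in WT LPS 10 ng/ml (-0.35) and WT FN (-0.37). The others were Sel1l in WT FN (-0.015), KO against WT with FN (0.27) and the WT doses (-0.10), and Derl2 in KO LPS 10 ng/ml (-0.054). That scaling also gave counts of members called of 25 in WT LPS 10 ng/ml, 25 in WT FN, 21 between genotypes and 15 interactions with FN, 16 between WT doses and 11 between KO FN and LPS 10 ng/ml. Over all genes it called 8852, 8879, 7955, 5807, 6957 and 3990 in the same comparisons. In the order 0.1 ng/ml LPS, 10 ng/ml LPS and FN, its chaperone medians were -0.21, -0.71 and -0.65 in WT and -0.031, -0.35 and -0.045 in KO cells. Its ATF4-arm medians were 0.36, 0.49 and 0.59 in WT cells and 1.13 in KO cells at 10 ng/ml LPS. Its medians of all genes were -0.25, -0.80 and -0.78 in WT and -0.08, -0.50 and -0.16 in KO cells. The cause was not tested.

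With the replicate block nested in genotype the members called were 16 (WT LPS 0.1 ng/ml), 24 (WT LPS 10 ng/ml), 1 (KO LPS 0.1 ng/ml), 19 (KO FN), 5, 10 and 17 (interactions with 0.1 ng/ml LPS, 10 ng/ml LPS and FN), 20 (WT doses) and 21 (KO FN against LPS 10 ng/ml). Calls over all genes rose with that block too, as the counts above show. With 1 replicate block over all libraries the members called were 9 (WT LPS 0.1 ng/ml), 1 (KO LPS 0.1 ng/ml), 13 (KO FN), 7 (KO against WT at 0.1 ng/ml), 3 (interaction at 0.1 ng/ml) and 10 (KO FN against LPS 10 ng/ml). In the same order, 3152, 190, 3431, 2507, 564 and 3539 of all genes were called. The block ended no call of the fit without it, and calls it added between doses or between FN and LPS are counted, not named. DESeq2 gave 8 in WT LPS 0.1 ng/ml, 1 in KO LPS 0.1 ng/ml and 8 between KO FN and LPS 10 ng/ml. Over all genes it called 2497, 190 and 2711 there. At 0.1 ng/ml it gave 7 between genotypes and 2 interactions, beside 1856 and 594 of all genes. Its chaperone median in WT FN was 0.20, as was that with RLE scaling. The compared groups alone gave 5 in KO FN, 0 and 1 between genotypes at 0.1 and 10 ng/ml LPS and 2 between KO FN and LPS 10 ng/ml. Those fits called 1363, 240, 804 and 1034 of all genes. No filter gave 2 between genotypes at 0.1 ng/ml, beside 999 of all genes. Without the 3 libraries rich in Rn45s there were 2 interactions at 0.1 ng/ml, beside 477 of all genes. The chaperone median was then 0.023 in KO LPS 0.1 ng/ml, and the ATF4-arm medians were 0.91 and 0.41 in WT and KO LPS 0.1 ng/ml.

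Leaving out 1 library at a time gave 4 to 8 members called in WT LPS 0.1 ng/ml, 4 to 10 in KO FN, 2 to 6 and 3 to 7 between genotypes at 0.1 and 10 ng/ml LPS, 0 to 2 interactions at 0.1 ng/ml and 3 to 7 between KO FN and LPS 10 ng/ml. In the order of stimuli above, chaperone medians ran from -0.039 to 0.093, 0.013 to 0.14 and 0.029 to 0.22 in WT and 0.023 to 0.060, -0.037 to 0.17 and -0.028 to 0.18 in KO cells. ATF4-arm medians ran from 0.47 to 0.98 in WT LPS 0.1 ng/ml and -0.058 to 0.52, 1.26 to 1.97 and 0.67 to 1.12 in KO cells. The small changes of Calr, Pdia6 and Canx at 10 ng/ml LPS were called with the nested block and not without it, and Derl3 was too low to test.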
